A study of Saccharomyces cerevisiae with 4 samples.

Results

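NuA4 is the budding yeast complex that acetylates the tails of histones H4 and H2A, and its deletion strains were followed on 4 tag arrays of a synthetic lethality screen with CDC102. The members were defined by a list of 9 subunit genes matched to the gene symbols of the array's spots, synonyms included. Spots were found for 7 of the 9, out of 5325 deletion strains in all: EPL1 (YFL024C), ESA1 (YOR244W), EAF6 (YJR082C), EAF1 (YDR359C), EAF3 (YPR023C), EAF5 (YEL018W) and EAF7 (YNL136W). TRA1 and YNG2 were not analysed here. The 7 genes lie on 7 different chromosomes, and each strain had 2 spots per array, 1 for each of its tags.

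Esa1 is the catalytic subunit, an acetyltransferase of the MYST family, and Epl1 holds it, with Yng2 and Eaf6, in a small module called Piccolo that can acetylate nucleosomes by itself. Eaf1 is the platform on which the whole complex is assembled, and Eaf3, Eaf5 and Eaf7 form a separable module, in which Eaf3 carries a chromodomain that binds methylated histone H3. The complex is recruited to promoters and to DNA breaks, and it also acetylates the histone variant H2A.Z. Yaf9, Swc4, Arp4 and actin are shared with Swr1, the remodeller that deposits H2A.Z, and Tra1 is shared with the SAGA acetyltransferase.

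CDC102 is a synonym of PSF2 (YJL072C), a gene for one component of GINS, which is part of the replicative helicase. All 4 groups came from a pool of 5896 heterozygous deletion diploids in which chromosomal CDC102 had been disrupted with natMX (cdc102D::natMX), and all carried a centromere-based URA3 plasmid. The plasmid held cdc102-1 or wild-type CDC102, and spores grew for 2 days at 30 or 28 degree, which gave cdc102-1 at 30 degree, cdc102-1 at 28 degree, CDC102 at 30 degree and CDC102 at 28 degree, with 1 array each and no replicate. On each array, tags from plates without uracil (MM-Ura, single and double mutant haploids) carried Cy5, and tags from such plates with Nat, the drug that natMX resists (double mutant haploids), carried Cy3. The titles were followed for the plasmid, although both wild-type descriptions also call the sporulated pool cdc102-1.

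Every value below is the deposited log2 ratio of the dyes, averaged over both tags and centred on its array's median strain, so that 0 is the median of the 5288 strains measured on all 4 arrays. The dye on top of the ratio is not given in the sources used here. Cy5 over Cy3 is likely, since the labels call the Cy5 target source 1, and then a higher value means relatively fewer double mutants of that strain. The dyes were not swapped on any array, so a value that all 4 arrays share cannot be told apart from a dye effect on the tags. The SD over strains was between 0.65 and 1.03 per array, and Pearson's r between any pair of arrays, taken over strains, was 0.60 to 0.70. The deletion of PSF2 itself averaged near the median strain, at 0.04 and -0.14 with cdc102-1 at 30 and 28 degree. With CDC102 it was at 0.31 and 0.36. Its tags disagreed with cdc102-1, where the first was at 0.41 at both temperatures. The second was at -0.33 at 30 degree and -0.70 at 28 degree. With so few arrays, their number limits how precise these values can be.

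On the cdc102-1 arrays the 7 strains fell into 3 ranges. With CDC102, EAF7 (0.08 and 0.23 at 30 and 28 degree) lay beside EAF6 (0.14 and 0.19). Both essential subunits lay below the median strain on all 4 arrays, EAF6 and EAF1 lay close to it (EAF6 slightly above on all 4 arrays), and the strains of the EAF3, EAF5 and EAF7 module lay above it on all 4 arrays and higher with cdc102-1 than with CDC102. Of all strains, 27.6% were below the median and 26.7% above it on every array.

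**Figure D1:**
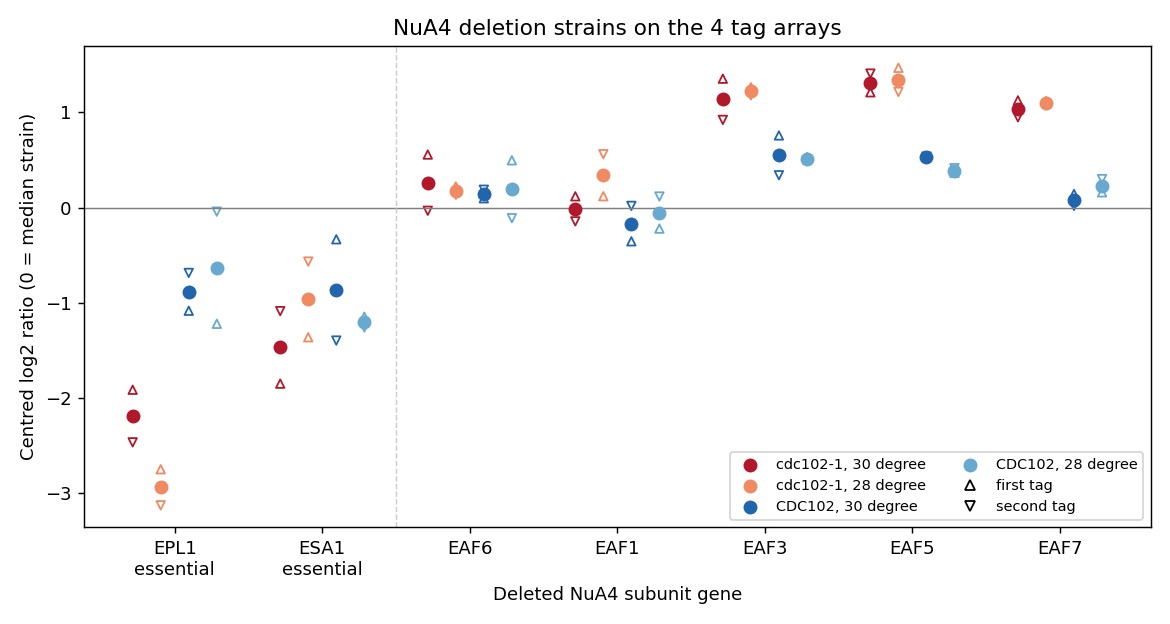
Centred log2 ratio (vertical axis, 0 is the median strain) of each measured NuA4 deletion strain on the 4 arrays; filled circles are strain means and open triangles the first and the second tag. EPL1 and ESA1 lie below 0 on every array, and EAF3, EAF5 and EAF7 lie above 0, with the cdc102-1 arrays above the CDC102 arrays.

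EPL1, the scaffold of Piccolo, had the lowest ratios of the complex with cdc102-1, at -2.19 at 30 degree and -2.94 at 28 degree, against -0.89 and -0.63 with CDC102. The values with both plasmids did not overlap. The share of all strains without such overlap was not counted, for EPL1 or for the members below. The mean level over 4 arrays was -1.66 ± 0.17 (SE of the additive fit), and the level fell below the median strain at an adjusted p of 0.025 in limma. Its difference between plasmids was -1.81 ± 0.34, from means of -2.57 with cdc102-1 and -0.76 with CDC102. Only 25 strains of 5288 had a lower difference, but EPL1 did not pass the plasmid test (limma, adjusted p 0.553, unadjusted p 0.010). By temperature the difference was -1.30 at 30 degree, and -2.31 at 28 degree. A difference of -1 or lower at both temperatures was found for 0.681% of all strains.

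The tags of EPL1 pointed the same way but differed in size. The first tag had plasmid differences of -0.83 at 30 degree and -1.53 at 28 degree, and the second tag had -1.78 and -3.09. Part of this gap stood on the CDC102 array at 28 degree, where the first tag was at -1.22 and the second at -0.04. The lowest deposited ratio of any member spot, 0.1, belonged to EPL1, and rounding to 0.01 there amounts to at most 0.07 on the log2 scale.

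ESA1, the catalytic subunit, was low with both plasmids, at -1.47 and -0.97 with cdc102-1 at 30 and 28 degree, against -0.87 and -1.20 with CDC102. These groups overlapped, and the plasmid difference was -0.18 ± 0.31 (limma, adjusted p 0.872), with opposite signs of -0.60 at 30 degree and 0.24 at 28 degree. The first tag gave -1.52 and -0.22 at 30 and 28 degree, while the second gave 0.31 and 0.69, so the tags disagreed in sign. The level over 4 arrays was -1.13 ± 0.15, and it fell below the median strain at an adjusted p of 0.033 in limma. All 8 tag values of ESA1, and all 8 of EPL1, were below 0. Both genes are essential, so haploids that carry these deletions are not expected to grow on either plate, and which cells their tags came from was not tested.

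EAF6, the small non-essential subunit of Piccolo, stayed near the median strain on every array. It had 0.26 and 0.18 with cdc102-1 at 30 and 28 degree, against 0.14 and 0.19 with CDC102, and these values overlapped. The plasmid difference was 0.05 ± 0.20 (limma, adjusted p 0.949), and its tags gave between -0.27 and 0.46. The level of 0.19 ± 0.10 did not pass the test against the median strain (limma, adjusted p 0.241).

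EAF1, the assembly platform, was the member closest to the median strain, with a level of 0.03 ± 0.10 (limma, adjusted p 0.869). Its ratios were -0.01 and 0.34 with cdc102-1 at 30 and 28 degree, against -0.17 and -0.05 with CDC102. The lower cdc102-1 value lay just above the higher CDC102 value. The difference of 0.27 ± 0.21 did not pass the test (limma, adjusted p 0.718), and the second tag at 30 degree went the other way, with -0.16. In the plasmid comparison the deletion of the platform thus had a smaller value than each deletion of the EAF3, EAF5 and EAF7 module; the difference between those strains was not tested.

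EAF3, the chromodomain subunit that NuA4 shares with the Rpd3S deacetylase, had ratios of 1.14 and 1.22 with cdc102-1 at 30 and 28 degree, against 0.55 and 0.51 with CDC102. Both cdc102-1 values were above both CDC102 values, though the share of all strains with that order was not counted. The plasmid difference was 0.65 ± 0.20, with 0.59 at 30 degree and 0.71 at 28 degree, and its 4 tag values lay between 0.58 and 0.73. The strain was already above the median with CDC102, where it averaged 0.53.

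EAF5, a subunit without a chromodomain in the same module, had ratios of 1.31 and 1.34 with cdc102-1 at 30 and 28 degree, against 0.53 and 0.39 with CDC102. The groups did not overlap here either, and again the share of all strains was not counted. Its plasmid difference was 0.86 ± 0.21, with 0.77 at 30 degree and 0.95 at 28 degree, and by tag it lay between 0.68 and 1.10. On both cdc102-1 arrays EAF5 had the highest value of the 7 members.

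EAF7, the partner of Eaf5 in the module, had ratios of 1.04 and 1.10 with cdc102-1 at 30 and 28 degree, against 0.08 and 0.23 with CDC102. It differed most between plasmids among the non-essential members, by 0.91 ± 0.20, with 0.96 at 30 degree and 0.87 at 28 degree. By tag the difference lay between 0.77 and 0.98. EAF7 was close to the median strain with CDC102, at an average of 0.15, where EAF3 and EAF5 averaged 0.53 and 0.46.

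**Figure D2:**
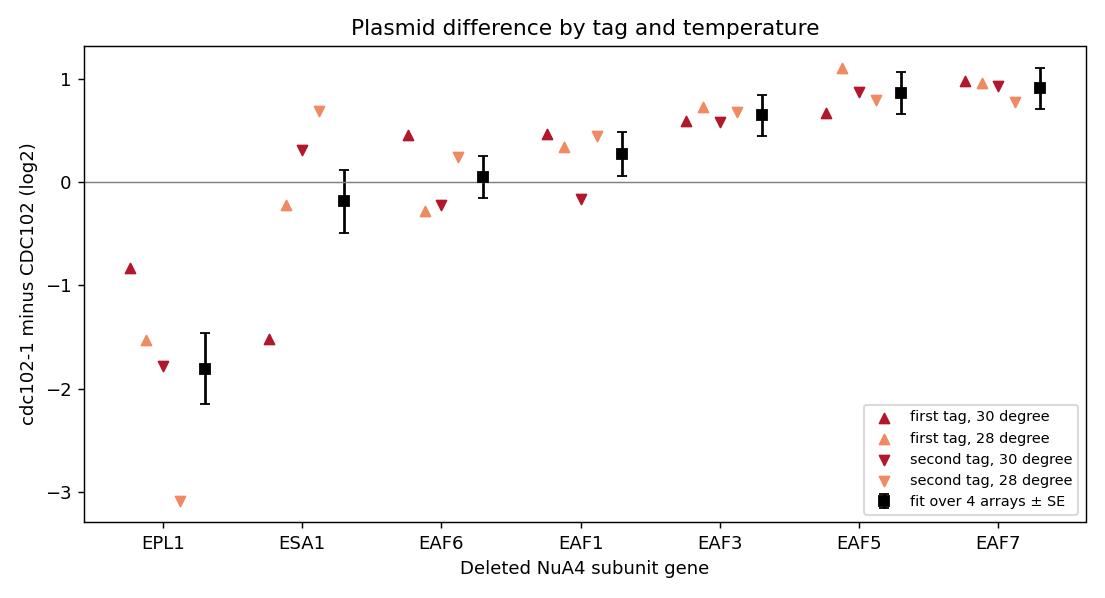
Difference between plasmids (cdc102-1 minus CDC102, log2 scale) for each tag at 30 and 28 degree, with the fit over 4 arrays and its SE as black squares. All values of EAF3, EAF5 and EAF7 lie between 0.58 and 1.10 and all of EPL1 lie below 0, while the tags of ESA1, EAF6 and EAF1 lie on both sides of 0.

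None of these 3 plasmid differences passed the adjusted test. In limma's plasmid test, 0 of the 7 members had an adjusted p under 0.05, as did 0% of all strains, and the smallest adjusted p over all strains was 0.553. EAF3, EAF5 and EAF7 had unadjusted p of 0.043, 0.020 and 0.016 in limma. An unadjusted p under 0.05 was reached by 3 members with a higher ratio (5.35% of all strains) and by 1 member, EPL1, with a lower ratio (3.39% of all strains). In fits to 3 arrays, which had to drop temperature, the same 4 members had an unadjusted p under 0.05 without either cdc102-1 array. EPL1 and EAF5 had one without the CDC102 array at 30 degree, and EPL1 and EAF7 without that at 28 degree. EAF3 had none without centring or with the second tag only. With quantile normalization the differences were 0.27 for EAF3 and 0.47 for EAF5, neither with an unadjusted p under 0.05, and 0.72 for EAF7.

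The signs by tag and temperature come from the same arrays as these tests, so they are not separate evidence. The ratio was higher with cdc102-1 in both tags at both temperatures for EAF3, EAF5 and EAF7, which is 3 of 7 members, against 16.3% of the 4844 strains with both tags on all arrays. It was lower in all 4 for EPL1 alone, 1 of 7 members, which is near the share of 13.9% of those strains. Averaged over tags, 4 members were higher at both temperatures (30.4% of all strains) and 1 was lower at both (27.6%). The median plasmid difference of the 7 members was 0.27, beside 0.01 over all strains. The mean of the 3 module strains was 0.81 ± 0.14 (SD over strains).

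**Figure D3:**
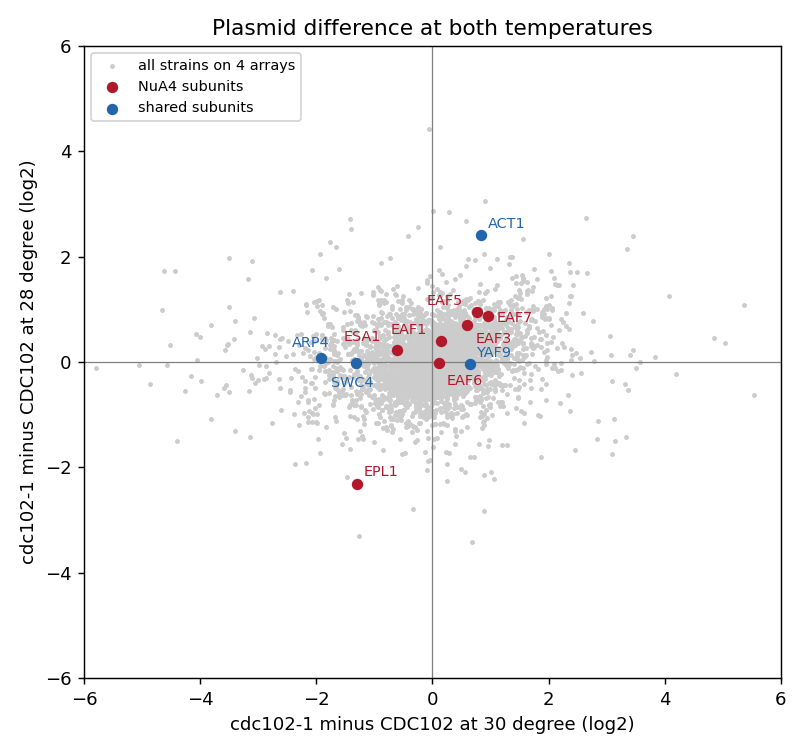
Plasmid difference (cdc102-1 minus CDC102, log2 scale) at 30 degree on the horizontal and at 28 degree on the vertical axis; grey points are all 5288 strains, red the NuA4 subunits and blue the subunits shared with Swr1. EAF3, EAF5 and EAF7 lie together at 0.59 to 0.96 on the 30 degree axis, EPL1 is at -1.30 and -2.31, and ACT1, ARP4 and SWC4 lie far from the module.

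The level over all 4 arrays did pass the test for 5 of the 7 members. The levels of EAF3, EAF5 and EAF7 rose above the median strain, at 0.85 ± 0.10, 0.89 ± 0.10 and 0.61 ± 0.10 (limma, adjusted p 0.028, 0.027 and 0.041), a call made for 4.48% of all strains. EPL1 and ESA1 had the opposite call, made for 15.7% of all strains. All 8 tag values of each of these 3 module strains were above 0. The calls rest on all 4 arrays together, since limma fits to the 2 arrays of a plasmid called 0 of 5288 strains (1451 with cdc102-1 and 1682 with CDC102 had an unadjusted p under 0.05). In each of the 4 fits that left out 1 array, where the plasmid and temperature terms were dropped, ESA1 was the only member called. EAF7 lost its call without centring, with the first tag and with the second tag (limma, adjusted p 0.072, 0.054 and 0.077), ESA1 with the first tag (limma, adjusted p 0.065) and EAF3 with the second (limma, adjusted p 0.057). The p-values of the additive fit to 4 arrays are moderated by the spread of other strains. They measure only the spread between arrays that the plasmid and temperature terms leave. Differences between plasmids or between temperatures do not enter that spread. No label describes separate cultures, so it may be technical.

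The essential and the non-essential subunits did not overlap on any array. At 30 degree with cdc102-1 the 2 essential strains averaged -1.83 and the 5 non-essential strains 0.75. On the cdc102-1 array at 28 degree these means were -1.95 and 0.83. On the CDC102 array at 30 degree the means were -0.88 for the essential and 0.23 for the non-essential strains. On that at 28 degree they were -0.92 and 0.25. The gap between the means, essential minus non-essential, was thus -2.58 and -2.79 with cdc102-1 at 30 and 28 degree, against -1.10 and -1.17 with CDC102. The wider gap with cdc102-1 came mainly from EPL1 on the low side and from EAF3, EAF5 and EAF7 on the high side. ESA1 added to it at 30 degree, with a plasmid difference of -0.60, but not at 28 degree, with 0.24. Genes are not replicates, so this contrast has no test.

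Low levels were not found for every essential gene of the related complexes. The 10 other essential genes of the chromatin lists described below averaged -0.58 over the 4 arrays, with a range of -1.42 to 0.23, and 4 of the 10 were below the median strain on every array, where the share of all strains is 27.6%. The 39 non-essential genes of these lists averaged -0.11. Medians were -0.71 for these essential and 0.02 for these non-essential genes. Among the essential genes outside NuA4, the mean plasmid difference was -0.02, with a range from -0.92 for ARP4 to 1.62 for ACT1. The mean for EPL1 and ESA1 was -0.99, but it joins -1.81 for EPL1 and -0.18 for ESA1. This contrast was not tested.

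The subunits shared with Swr1 did not follow the EAF3, EAF5 and EAF7 module. YAF9, the non-essential shared subunit with a YEATS domain, had ratios of 0.84 and 1.08 with cdc102-1 at 30 and 28 degree, against 0.20 and 1.12 with CDC102. The plasmids differed by 0.64 at 30 degree but by -0.04 at 28 degree (0.30 ± 0.27 in the fit, limma, adjusted p 0.753). Its level, 0.81 ± 0.14, was above the median strain at an adjusted p of 0.043 in limma, like those of the module. SWC4, an essential subunit, had -1.77 and -0.63 with cdc102-1 at 30 and 28 degree, against -0.45 and -0.61 with CDC102, so that 1 array held the whole difference. On that array its tags were at -3.20 and -0.33.

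ARP4, an actin-related protein and essential, showed the same pattern as SWC4, with -2.52 and -0.69 with cdc102-1 at 30 and 28 degree, against -0.60 and -0.77 with CDC102. Both tags of ARP4 were low on the cdc102-1 array at 30 degree, at -2.91 and -2.13. ARP4 lies on chromosome X with PSF2, with 10 annotated genes between them, and the 7 measured strains of that interval had a median plasmid difference of -0.37; the part of this position in the ARP4 values was not tested. ACT1, which encodes actin, had -0.39 and 1.85 with cdc102-1 at 30 and 28 degree, against -1.22 and -0.56 with CDC102. The tags of ACT1 disagreed, with 4.48 and -0.78 for the second and the first tag on the cdc102-1 array at 28 degree.

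Among neighbouring complexes, Swr1 with H2A.Z had the highest median plasmid difference, 0.69 over 11 strains, of which 6 were higher at both temperatures and 0 lower. Its extremes were HTZ1, which encodes H2A.Z, at 1.40 ± 0.27 and SWC7, a Swr1 subunit, at -0.50 ± 0.40. The median of Swr1 was 1.00 with the first tag and 0.37 with the second. Of its 9 strains with both tags on all arrays, 4 were higher with cdc102-1 in both tags at both temperatures, like the EAF3, EAF5 and EAF7 module. HTZ1 was among these 4, and the share of all such strains is 16.3%. SAGA, which shares Tra1 with NuA4, had a median of 0.02 over 18 strains, of which 4 were higher at both temperatures and 3 lower. Its extremes were TAF9, a subunit shared with the general factor TFIID, at 0.65 ± 1.16 and ADA2, of the acetyltransferase module, at -0.84 ± 0.29. For all strains the shares higher and lower at both temperatures are 30.4% and 27.6%.

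The other acetyltransferases and Rpd3S were not like the EAF3, EAF5 and EAF7 module in their values. The 12 strains of other acetyltransferase genes had a median of 0.06, of which 5 were higher at both temperatures and 4 lower, between RTT109, the H3K56 acetyltransferase, at 0.65 ± 0.25 and YNG1, the Yng2 homologue of the NuA3 complex, at -0.46 ± 0.23. Rpd3S, which also contains Eaf3, had a median of -0.34 over its 4 other strains. Of these, 3 were lower at both temperatures, the lowest being UME1 at -0.56 ± 0.29. The exception was RCO1, the subunit particular to Rpd3S, at 3.23 ± 1.20; its first tag stood at the lowest rounded ratio, 0.01, on both CDC102 arrays. That gave -6.44 at 30 degree, where the second tag had no value, and -6.47 at 28 degree, where the second tag was at -0.09. None of these differences between lists was tested.

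**Figure D4:**
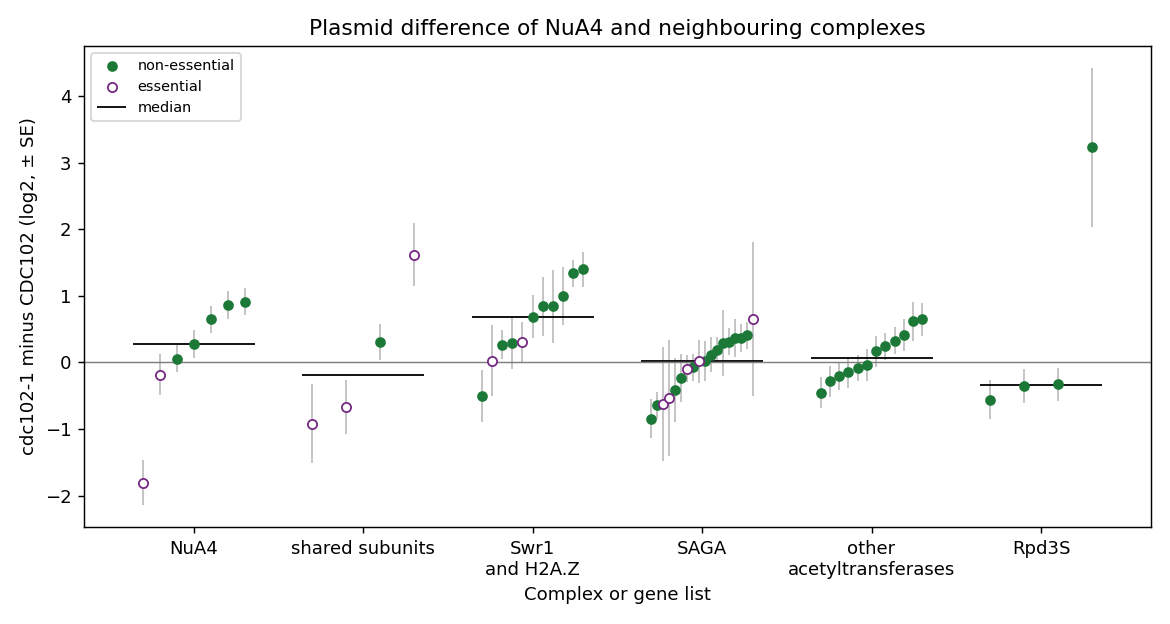
Plasmid difference (cdc102-1 minus CDC102, log2 scale, ± SE of the fit over 4 arrays) of each strain, grouped by complex; filled points are non-essential genes, open points essential genes and bars the list medians. NuA4 runs from EPL1 at -1.81 to EAF7 at 0.91, and Swr1 with H2A.Z has the highest median, 0.69.

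Temperature differences of the NuA4 strains were small. The mean difference, 30 minus 28 degree, lay between -0.23 ± 0.21 for EAF1 and 0.25 ± 0.34 for EPL1. No member passed limma's temperature test, in which 0% of all strains had an adjusted p under 0.05 (smallest adjusted p 0.730). An unadjusted p under 0.05 was reached by 0 of the 7 members and by 5.58% of all strains. With cdc102-1, 30 minus 28 degree was -0.08 for EAF3, -0.03 for EAF5 and -0.06 for EAF7. EPL1 was less low at 30 degree with cdc102-1, by 0.75, and lower at 30 degree with CDC102, at -0.25.

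Of the 7 profiles, those of EAF3 and EAF5 were the most alike. Likeness was measured as the Euclidean distance over the 4 centred array values, and their distance was 0.24. EAF5 was number 4 among the 5287 other strains by closeness to EAF3, and EAF3 was number 4 by closeness to EAF5. For EAF7 the closest member was EAF3, at a distance of 0.57 and a rank of 66. The strain closest to both EAF3 and EAF5 was VPS29, of the retromer, at 0.20 and 0.17, and the strain closest to EAF7 was RVS167, an amphiphysin, at 0.14. EPL1 was far from every strain, with ERG13, of sterol synthesis, nearest at 0.77. For ESA1, EAF6 and EAF1 the nearest strains were MAS1 at 0.19, LIA1 at 0.07 and PET127 at 0.10, and their nearest members had ranks of 1992, 1533 and 663. With only 4 values per profile, such ranks are a description.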

How the data were processed

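The labels describe PCR of the tags from genomic DNA (their molecule field names RNA). The products were hybridised, per the labels, to a Hopkins tag array, read on a GenePix 4000B and analysed with GenePix 5.1. The deposited values are log2 ratios per spot; the sources used here give no background correction or dye normalization. As ratios, 100% of the values were whole multiples of 0.01 (tolerance 0.1 percent). Stand-in ratios in 3 and 0 spots of the cdc102-1 arrays (30 and 28 degree) and 4 and 3 of the CDC102 arrays were left out.

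Of 22575 spots, 18794 named 1 gene, 0 several and 3781 none; 5321 of 5325 gene identifiers matched RefSeq's table (R64), used for names and gene order. The array's build is not stated, so no coordinates are printed, and no sequences were used. Spots with numbers up to 10971 were called first tags and the rest second tags. Spots were averaged per strain and each array centred by subtracting -0.27, -0.19, -0.20 and -0.17 (same order).

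Plasmid, temperature and mean level were tested together over 5288 strains with limma 3.58.1 (R 4.3.3, lmFit and eBayes, Benjamini-Hochberg at 0.05); the additive fit has 1 residual degree of freedom plus 2.30 borrowed, and puts any unequal effect into the error. It was tested on simulated data. The members, lists and essential marks were chosen with earlier results of these data known. Named genes were the members, the shared subunits, PSF2, each list's extremes and each member's nearest strain; the chromosomal neighbours were named after their values were seen. Alternatives were no centring, quantile normalization, medians, each tag, tag means, agreeing tags, 3 arrays, a robust prior, no second term, no ratios of 0.01, and each array left out. Figures used matplotlib 3.10.9.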

Additional observations from a re-analysis of the deposited data

Results flagged for a closer look

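Several values had opposite signs at the 2 temperatures or with the 2 plasmids, some of them very small. These differences were not tested, since each rests on 1 array per combination. The plasmid difference at 30 degree minus that at 28 degree was -0.84 for ESA1, 0.13 for EAF6, 0.68 for YAF9 and -2.01 for ARP4, whose plasmid differences had opposite signs at 30 and 28 degree. For ESA1 these were -0.60 and 0.24, and for ARP4 -1.92 and 0.08. Those of EAF6 were 0.12 and -0.01 and those of YAF9 0.64 and -0.04, so the value at 28 degree was very small. The same quantity, read as the temperature difference with cdc102-1 minus that with CDC102, was 1.00 for EPL1, -0.84 for ESA1, 0.13 for EAF6, -0.12 for EAF3, -0.18 for EAF5, -1.30 for SWC4 and -2.01 for ARP4, whose temperature differences had opposite signs with the plasmids. For EPL1 the temperature differences were 0.75 with cdc102-1 and -0.25 with CDC102. Those of EAF6 (0.08 and -0.05), EAF3 (-0.08 and 0.03) and EAF5 (-0.03 and 0.15) were small with both plasmids. No group held more than 1 array, so no array could be compared with others of its group.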

How the results depend on the processing

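The plasmid and temperature tests called 0 members under every alternative run, and the plasmid differences of EPL1, EAF6, EAF1, EAF3, EAF5 and EAF7 kept their signs. With quantile normalization those of EAF3 and EAF5 were 0.27 and 0.47, against 0.65 and 0.86, and only EPL1 and EAF7 had an unadjusted p under 0.05. The level test called 5 members and 20.2% of all strains. It called 4 without centring (EAF7 lost), where 23.9% of all strains were called. With the first tag only it called 3 (EAF7 and ESA1 lost), beside 13.9% of the strains tested. With the second only it called 3 (EAF7 and EAF3 lost), beside 10.8%. Among strains with agreeing tags (apart by under 1 on each array) it called 3 of 5, beside 25.2%. With the cdc102-1 or the CDC102 arrays only (chosen after seeing the data) it called 0, and without any 1 array 1. These fits have fewer arrays, and the last leave the plasmid and temperature effects in the error. The median plasmid difference of the members was 0.49 with the second tag and 0.64 on strains with agreeing tags, which left out EPL1 and ESA1. The essential minus non-essential gap in plasmid difference was -1.24 with quantile normalization, against -1.54, and that in level was -2.68 with the cdc102-1 and -1.14 with the CDC102 arrays only, against -1.91, and -2.18 to -1.62 with 1 array left out.

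Temperature differences, the plasmid difference of ESA1 and the levels of EAF6 and EAF1 changed sign under some alternatives. Apart from the fits without centring or without 1 array, the cause was not tested. Temperature differences turned to -0.035 for EAF6 without centring, where the array medians stay in the values. With quantile normalization they were 0.21 for ESA1, -0.017 for EAF6 and -0.090 for EAF5. With the first tag they were 0.16 for ESA1, -0.034 for EAF6, 0.16 for EAF3 and -0.045 for EAF5, and with agreeing tags -0.016 for EAF6. Leaving out 1 array drops the other term and leaves the plasmids unequal between temperatures, so part of the plasmid difference enters the temperature difference. In turn, part of the temperature difference enters the plasmid difference. Temperature differences then ran from -0.91 to 1.40 for EPL1, -0.38 to 0.22 for ESA1 and -0.043 to 0.076 for EAF6. They ran from -0.38 to 0.33 for EAF3, -0.42 to 0.53 for EAF5 and -0.58 to 0.37 for EAF7. The plasmid difference of ESA1 was 0.49 with the second tag, and -0.43 to 0.069 with 1 array left out. Without centring, levels take in the array medians of -0.27 to -0.17, and they were -0.016 for EAF6 and -0.18 for EAF1. The level of EAF1 was -0.11 with the first tag, -0.12 with agreeing tags, -0.11 with the CDC102 arrays only and -0.079 to 0.091 with 1 array left out. The level of EAF6 was -0.021 with the second tag. The additive fit pairs the arrays of each temperature, and fits without the other term called 0 members too; replicate numbers could not pair arrays, since each group holds 1. Signal over background is unknown here.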

Other observations

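The strains deleted for the genes next to EAF3, EAF5 and EAF7 had plasmid differences of the opposite sign. These 3 strains lay between 0.65 and 0.91, and their 6 nearest measured neighbours on the chromosomes lay between -0.88 for MMS21, beside EAF5, and -0.04 for YME1, beside EAF3. Among the 14 neighbours of all measured members, 8 had a plasmid difference below 0, and the median over all strains was 0.01. The differences of YME1 (SE 0.22), PMP2 (-0.21 ± 0.22) and NAM9 (-0.61 ± 0.88) were smaller than their SE, those of MMS21, SDD4 and YNL134C larger. At 30 and 28 degree NAM9 had -2.16 and 0.95, and YME1 0.14 and -0.21. Beside EAF1, at 0.27, GGA1 had 0.10 ± 0.21 and BCP1 -0.72 ± 0.23. EPL1, at -1.81 ± 0.34, also differed in sign from its neighbours BST1 and BUD27, at 0.86 ± 0.84 and 0.49 ± 0.35 (SE of the additive fit). The levels of these strains were all below the median strain, at -1.66 for EPL1, -1.04 for BST1 and -0.69 for BUD27. ESA1 had a plasmid difference of -0.18 ± 0.31, and its neighbours PUS7 and DGA1 lay within that SE of it, at 0.06 and 0.01, while the level was -1.13 for ESA1, 0.54 for PUS7 and 0.23 for DGA1. EAF6 was close to its neighbours AIM24 and ACF4 in plasmid difference, at 0.05 beside 0.04 and -0.13, and in level, at 0.19 beside 0.25 and 0.27. EAF6 is on chromosome X like PSF2, with 159 annotated genes between them. None of these differences between strains was tested.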
